A study of Rattus norvegicus with 32 samples.

Results

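The genes of local steroid metabolism followed here were Star, Hsd11b1, Srd5a1, Sts, Hsd17b4, Hsd17b11, Hsd17b12, Por, Fdx1 and Cyp2e1, measured in rat mammary gland through the 4-day estrous cycle. Every probe set (the set of short probes that together read 1 transcript) whose platform symbol was 1 of these 10 genes was taken where its median intensity over 31 arrays was 10 or more. This left 11 probe sets of 9 genes, of 31042 probe sets for 14217 genes in all, of which 22943 for 11797 genes passed the same minimum and were tested. Srd5a1 had no probe set under that symbol and was not analysed here. A second probe set of Fdx1 was left out with a median of 5.78 and intensities from 5.54 to 7.19, and the lowest median kept was 45.4, for Sts.

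The rats were untreated virgin Sprague-Dawley females that arrived at about 70 days of age and were killed some time later, once their vaginal lavages had shown regular 4-day cycles, and each was used for a single Affymetrix Rat 230 2.0 array, so no time point had a replicate. Day 1 was covered by 8 rats killed between 7 and 17.6 h. On day 2, the day of estrus, 8 rats were killed between 31.6 and 43 h, on day 3 another 8 between 57 and 67.1 h, and on day 4 the last 7 between 79.3 and 88.1 h. The rat of 40 h was left out. To show levels, 17 rats sampled past the middle of the sampled clock hours, shortly past noon, are called later rats and the other 14 earlier rats. The study describes several glands of the left side, and the sample labels the fourth glands, with lymph nodes removed. Values are linear intensities after GC-RMA, whose array medians ran from 49.9 to 54.7, and intensities of different probe sets cannot be set against each other. The spread around every fit holds differences between rats as well as measurement error.

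Steroid hormones are made from cholesterol, which Star carries into the mitochondrion. There the side-chain cleaving enzyme Cyp11a1 makes pregnenolone with electrons from Fdx1, while Por supplies electrons to the cytochromes P450 of the endoplasmic reticulum. Tissues that do not make steroids from cholesterol can still remodel circulating ones: Hsd11b1 regenerates active glucocorticoid, Sts frees estrogens and androgens from their sulfates, Srd5a1 reduces testosterone and progesterone, and enzymes of the Hsd17b family oxidise or reduce steroids, several of them fatty acyl chains as well. The mammary gland of a virgin rat is a small epithelial tree in a fat pad. In bulk tissue of this kind, fewer cells of a type and less RNA per cell cannot be told apart.

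Most of the enzymes that build steroids from cholesterol were read at the bottom of the scale. Of 66 other genes of steroid synthesis, metabolism and transport, 52 had a probe set and 35 passed the minimum. Cyp17a1 (median 4.60), Hsd3b1 (4.22), Cyp11b1 (4.38), Cyp21a1 (6.62), the aromatase Cyp19a1 (5.50) and Nr5a1 (4.32), the nuclear receptor that drives these genes in adrenal and gonad, had medians below the minimum. Of 10 markers of steroidogenic tissue with a probe set, only Cyp11a1 passed, with intensities from 24.5 to 105 and a median of 51.9. Of 12 hepatocyte markers 3 passed (Alb, Fgg and Apoc3). All 12 adipocyte markers with a probe set passed, Adipoq with a median of 6078.

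The promoters of Por, Hsd17b12 and Cyp2e1 are shown because Por carried the clearest daily change, Hsd17b12 moved with Star from rat to rat and Cyp2e1 carried the cycle-day change. The RefSeq table used (build GRCr8) matched 8 of the 10 genes, all but Star and Hsd11b1. Each sequence is the stretch of 250 bases that ends just before the annotated start, 5′ to 3′ on the gene's strand, and capitals mark a match to AGGTCA, the core hexamer that many nuclear receptors bind, on either strand. The window of Por lies at chr12:26635810-26636059 on the minus strand, that of Hsd17b12 at chr3:100568899-100569148 on the minus strand and that of Cyp2e1 at chr1:205269717-205269966 on the plus strand.
Por: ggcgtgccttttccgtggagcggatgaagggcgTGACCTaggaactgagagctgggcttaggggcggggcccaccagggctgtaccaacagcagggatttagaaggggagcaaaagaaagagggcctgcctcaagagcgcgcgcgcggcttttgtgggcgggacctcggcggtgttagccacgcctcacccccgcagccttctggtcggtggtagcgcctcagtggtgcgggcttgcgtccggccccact
Hsd17b12: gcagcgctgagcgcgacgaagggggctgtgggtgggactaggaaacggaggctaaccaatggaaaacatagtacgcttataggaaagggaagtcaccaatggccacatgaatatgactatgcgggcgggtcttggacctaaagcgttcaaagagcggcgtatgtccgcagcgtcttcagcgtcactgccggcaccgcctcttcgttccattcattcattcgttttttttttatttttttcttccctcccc
Cyp2e1: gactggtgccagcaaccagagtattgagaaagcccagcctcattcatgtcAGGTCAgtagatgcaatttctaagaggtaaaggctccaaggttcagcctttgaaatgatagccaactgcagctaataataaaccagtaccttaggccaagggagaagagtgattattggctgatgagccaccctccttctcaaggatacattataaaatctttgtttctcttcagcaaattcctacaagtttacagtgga
AGGTCA began 217 bases before the start of Por and 200 bases before that of Cyp2e1, and was not found in the window of Hsd17b12. It was in the windows of 5 of the 8 matched genes (Sts, Hsd17b4, Por, Fdx1 and Cyp2e1) and in 14.1% of 33469 promoters of the same length. The E-box CACGTG of clock activators (5.59% of promoters), and the D-boxes TTATGTAA (0.828%) and TTACGTAA (0.108%), searched on both strands and with no bases shared with an AGGTCA match, had no match in any of the 8 windows, which do not include that of Star. A match describes letters in this window and is not evidence of binding.

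Star rose through the day. Its main probe set (1368406_at) stood between 59.8 and 434 with a median of 167 in the 17 later rats, against 23.2 to 176 with a median of 67.2 in the 14 earlier rats. The groups overlapped, with 7 later rats above all earlier rats and 5 earlier rats below all later ones. On the log2 scale the slope came to 2.05 for 10 h, with a standard error of 0.36 (adjusted p = 8.90e-04 from limma), a 4.13-fold change, and 9 of the 22943 probe sets had a larger one. Within days, taking days 1 to 4 in order, the slope was 1.79 (standard error 0.71), 2.04 (0.68), 2.12 (0.76) and 2.44 (0.95). It was upward on each of the 4 days.

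The course differed in detail between days. On day 1 Star was 42.7, 23.2 and 48.9 in the 3 earlier rats in the order of their hours, then 167, 120, 93.2, 125 and 74.6 in the 5 later rats, the first of them killed at 13 h. The highest value of that day was that of the first rat after noon. On day 2 it was 63.3, 30.6, 72.1 and 70.7 in the 4 earlier rats and 134, 144, 197 and 186 in the 4 later rats, with no overlap. On day 3 it was 24.3, 133 and 79.5 in the 3 earlier rats, and then 216, 184, 59.8, 434 and 173 in the 5 later rats. The rat of 64.2 h lay within the range of the earlier rats, and that of 65.6 h was the highest of the 31. On day 4 it was 63.8, 94.3, 72.1 and 176 in the 4 earlier rats and 146, 408 and 194 in the 3 later ones.

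The second probe set of Star (1387174_a_at) gave the same direction with a smaller change. It stood between 40.6 and 215 with a median of 98.8 in later rats, against 14.9 to 119 with a median of 48.3 in earlier rats. Its slope came to 1.30 for 10 h, with a standard error of 0.33 (adjusted p = 0.0307 from limma), and it was upward on all 4 days. Across the 31 arrays the intensities of the pair of probe sets had a Pearson r of 0.910. This call was fragile, since it was lost without the rat of 7.5, 32.8, 41.6, 43, 57, 65.6 or 79.3 h (adjusted p from 0.00913 to 0.0792 over all single omissions).

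**Figure D1:**
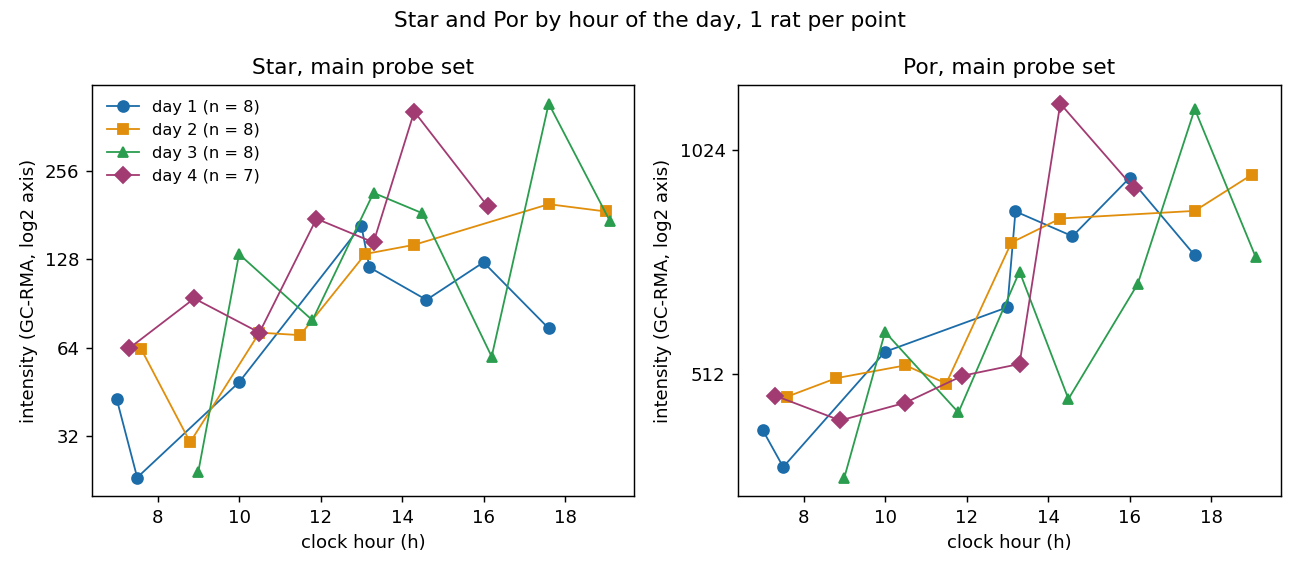
Intensity of the main probe sets of Star and Por (log2 axis) against clock hour, 1 rat per point, with lines joining the rats of a cycle day. Star spans 23.2 to 434 and Por 372 to 1183, and later rats lie mostly above earlier ones on every day.

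Por, the reductase that feeds electrons to microsomal cytochromes P450, rose with less scatter than Star. Its main probe set (1387109_at) stood between 474 and 1183 with a median of 785 in later rats, against 372 to 584 with a median of 479 in earlier rats. Of the 17 later rats, 15 were above every earlier rat. The exceptions were the rats of 62.5 h (474) and 85.3 h (529). Its slope came to 1.08 for 10 h, with a standard error of 0.15 (adjusted p = 1.79e-05 from limma), a 2.11-fold change, with 1.08, 0.95, 1.05 and 1.38 on days 1 to 4 in order. The second probe set (1368213_at) stood between 120 and 299 with a median of 197 in later rats, against 67.3 to 164 with a median of 113 in earlier rats, and its slope was 1.07 (standard error 0.20, adjusted p = 0.00163 from limma).

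Along the day 4 of 11 member probe sets were called higher and 0 lower, against 1.08% higher and 0.68% lower of all probe sets tested. The 4 were the pairs of Star and Por. The median slope was 0.19 over the members and 0.02 over all probe sets. The other 7 genes did not pass. Cyp2e1 had the largest slope among them, 0.49, with a standard error as large (0.49, adjusted p = 0.738 from limma), and its slopes of 1.53, -0.84, 1.01 and 0.38 on days 1 to 4 did not share a sign. Sts had a slope of 0.19 (standard error 0.16), Hsd17b11 one of 0.17 (0.09), Fdx1 one of 0.11 (0.07), Hsd17b12 one of -0.03 (0.16), Hsd17b4 one of -0.07 (0.08) and Hsd11b1 one of -0.11 (0.14). Fdx1, the mitochondrial counterpart of Por as an electron donor, ranged over 680 to 981 in the 31 rats. No member had a slope that differed between days (0 of 11 at an adjusted p under 0.05 from limma, against 0.00436% of all probe sets, and 0 of 11 at an unadjusted p under 0.05, against 3.66%).

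Of the other steroid genes, 0 of the 35 that passed the minimum were called along the day (limma), where 1.08% of all probe sets were called higher and 0.68% lower. Their slopes ran from -0.65 for Akr1c3 (standard error 0.33, adjusted p = 0.446 from limma) to 0.41 for Stard10 (standard error 0.16, adjusted p = 0.242 from limma), a lipid transfer protein of the same domain family as Star. Scp2, a sterol carrier, had a slope of 0.13, Tspo, a cholesterol-binding protein of the outer mitochondrial membrane, one of -0.0023 and Cyp11a1 one of 0.09. Of 7 steroid receptors measured, 0 were called, with slopes of 0.03 for the glucocorticoid receptor Nr3c1 and -0.83 (adjusted p = 0.421 from limma) for the progesterone receptor Pgr. Of the 18 clock genes measured, 13 were called higher and 4 lower, and of 13 glucocorticoid-responsive genes 6 were called higher and 2 lower, among them Fkbp5, a cochaperone of the receptor, at 1.16 and Tsc22d3 at 1.21.

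**Figure D2:**
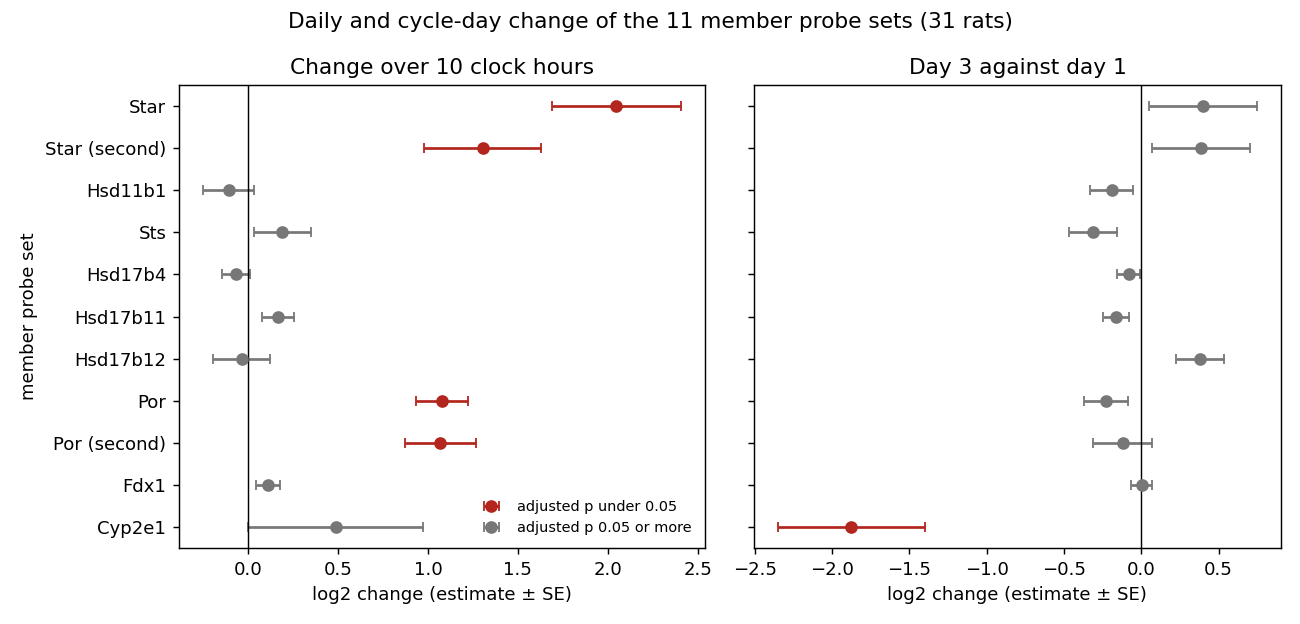
Log2 change of the 11 member probe sets over 10 clock hours and on day 3 against day 1 (estimate ± SE from limma, 31 rats). Red marks an adjusted p under 0.05: Star at 2.05 and 1.30 and Por at 1.08 and 1.07 along the day, and Cyp2e1 at -1.87 between the days.

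Cyp2e1 was the member that changed with the cycle day. This cytochrome P450 oxidises ethanol, ketone bodies and many small molecules, and the reductase Por supplies its electrons. It stood between 186 and 1383 with a median of 472 on day 1, 303 and 1843 with a median of 469 on day 2, 46.8 and 547 with a median of 143 on day 3, and 43.2 and 226 with a median of 118 on day 4. On day 3 7 of 8 rats, and on day 4 7 of 7, lay below every rat of day 2. The exception on day 3 was the rat of 65.6 h, at 547. Day 4 against day 2 was not among the contrasts fitted. For this and all other counts of rats above or below a whole group, the share over all probe sets was not computed. Cyp2e1 was also the most scattered member, with the highest of the 31 rats 42.6-fold above the lowest.

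On the log2 scale Cyp2e1 fell by 2.22 on day 3 against day 2 (standard error 0.47, adjusted p = 0.0347 from limma). On day 3 against day 1 it fell by 1.87 (standard error 0.47, adjusted p = 0.0491 from limma). Its difference of day 4 against day 1 was -1.84 (standard error 0.48), of similar size, with an adjusted p of 0.293 from limma, and that of day 4 against day 3 was 0.04 (standard error 0.50). Over the 4 days together its moderated F passed (adjusted p = 0.0163 from limma). Cyp2e1 was the only member called between the days (1 of 11, against 0.501% of all probe sets), on day 3 against day 1 (0.955%) and on day 3 against day 2 (0.227%). The call against day 1 was marginal. Of the 31 fits that left out 1 rat, it passed in the 8 without the rat of 10, 13, 32.8, 41.6, 43, 65.6, 79.3 or 80.9 h and failed in the other 23 (adjusted p from 0.0143 to 0.122, with changes of -2.13 to -1.61). The call against day 2 was lost without the rat of 32.8, 35.5, 38.3, 57, 58, 61.3, 64.2 or 67.1 h (adjusted p from 0.0114 to 0.0851).

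Markers of other cells also moved on day 3 against day 1, where 0.955% of all probe sets were called in either direction. Of the 11 basal and myoepithelial markers measured, 4 were called higher (Cnn1 at 0.97, Tagln at 0.68, Myh11 at 0.66 and Mylk at 0.47 on the log2 scale) and 1 lower (Oxtr at -1.66), and the defining keratins Krt5 (0.14) and Krt14 (-0.02) did not pass. The summed intensity of this list ran from 10976 to 16753 on day 3, against 7324 to 11480 on day 1. Of 14 luminal epithelial markers, 2 were called higher (Krt8 at 0.47 and Krt18 at 0.41) and 1 lower (Prom1 at -0.99), with sums of 27327 to 53163 on day 3, against 27986 to 46322 on day 1. Of the 12 adipocyte markers 0 were called on this contrast. On day 3 against day 2, where 0.227% of all probe sets were called, it was 0 of each of the 3 lists (limma). Of 6 lymphocyte markers 0 were called on day 3 against day 1, with a median change of 1.02. Their sums ran from 164 to 1842 on day 3, against 163 to 369 on day 1. Of 12 macrophage markers 1 was called lower (Cd163 at -0.63). Over the 31 arrays the r of Cyp2e1 was -0.376 with the lymphocyte list, or -0.080 without the 2 rats farthest from the list's median. It was 0.325 with the macrophage and -0.113 with the basal and myoepithelial list. With the adipocyte, skeletal muscle, luminal epithelial and lymphocyte lists together as covariates, Cyp2e1 differed by -1.76 on day 3 against day 1 (adjusted p = 0.0683 from limma). On day 3 against day 2 it differed by -2.25 (adjusted p = 0.0492 from limma). The macrophage and the basal and myoepithelial lists were not in that fit. The part of each single list in the change of Cyp2e1 was not tested.

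The remaining contrasts called no member. On day 2 against day 1 it was 0 of 11, against 0.00436% of all probe sets, and 0 of 11 at an unadjusted p under 0.05 from limma, against 5.82%. On day 4 against day 3 it was 0 of 11, against 0%, and 1 of 11 at an unadjusted p under 0.05, against 5.79%. On day 4 against day 1, where 0.0218% of all probe sets were called, 0 of 11 passed. At an unadjusted p under 0.05 there were 5 of 11, against 6.39% of all probe sets, namely both probe sets of Star, Hsd17b12, Cyp2e1 and Hsd11b1. After Cyp2e1 the largest of these differences was that of Star, whose main probe set was 1.02 higher on the log2 scale on day 4 than on day 1 (standard error 0.36, adjusted p = 0.593 from limma). Star averaged 86.9 ± 48.7 (SD, n = 8) on day 1, 112 ± 61.6 (n = 8) on day 2, 163 ± 128 (n = 8) on day 3 and 165 ± 118 (n = 7) on day 4, so that the days overlapped widely.

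Hsd17b12, an enzyme of fatty acid elongation that can also reduce estrone, stood between 1097 and 1713 with a median of 1244 on day 1, 1211 and 1636 with a median of 1522 on day 2, 1007 and 2679 with a median of 1833 on day 3, and 1710 and 2282 with a median of 1888 on day 4. On day 4 6 of 7 rats lay above every rat of day 1. The difference of day 4 against day 1 was 0.51 (standard error 0.16), with an adjusted p of 0.444 from limma over all probe sets. Day 3 was the day of greatest spread, with 3 rats between 1007 and 1299 and the other 5 between 1760 and 2679.

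Hsd11b1, which regenerates active glucocorticoid, had medians of 662, 623, 597 and 531 on days 1 to 4 in order, over a range of 449 to 1012 in all rats, and on day 4 it differed from day 1 by -0.32, with a standard error of 0.14 (adjusted p = 0.736 from limma). Sts, the steroid sulfatase, had medians of 45.4, 50.4, 37.4 and 46.3, with 5 of 8 rats of day 3 below every rat of day 2 and a difference of -0.38 between them (standard error 0.15, adjusted p = 0.302). Hsd17b4, a peroxisomal enzyme of fatty acid oxidation that also oxidises estradiol, stood within 1116 and 1768 in all 31 rats. Hsd17b11, a short-chain dehydrogenase of lipid droplets, stood within 428 and 816, with its lowest value at 62.5 h and its highest at 86.3 h.

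**Figure D3:**
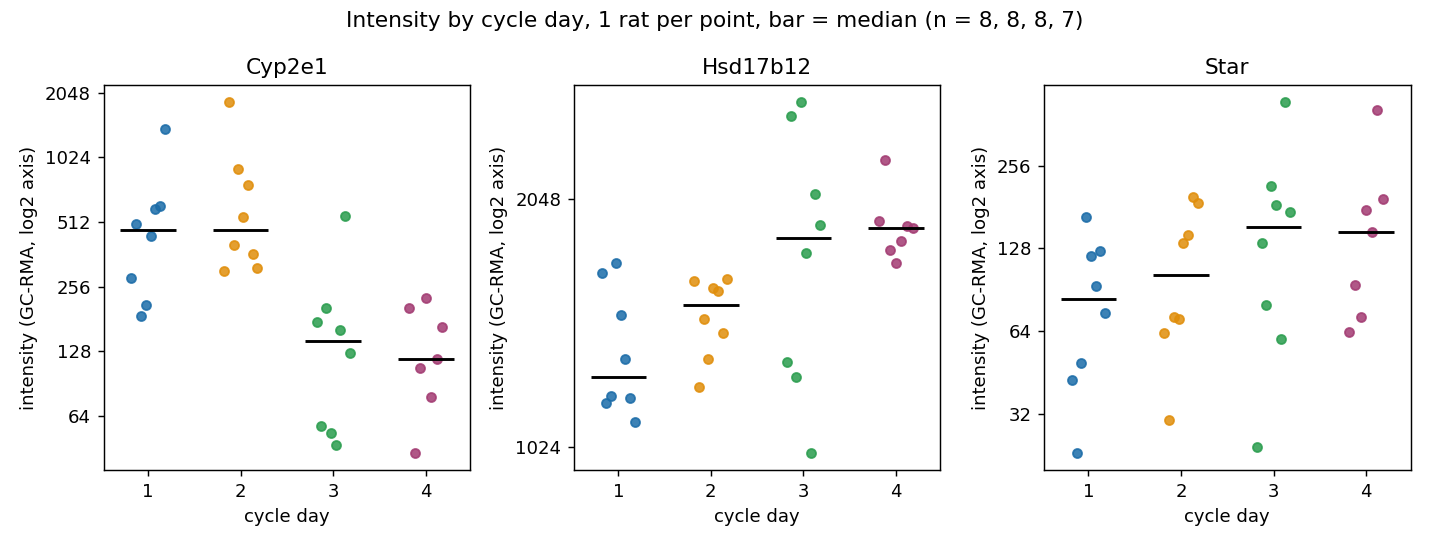
Intensity (log2 axis) of Cyp2e1, Hsd17b12 and Star by cycle day, 1 rat per point, with a bar at the median (n = 8, 8, 8 and 7 rats). Cyp2e1 has medians of 472, 469, 143 and 118, Hsd17b12 of 1244, 1522, 1833 and 1888, and the 4 days of Star overlap.

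Of the other steroid genes 2 changed between the days. Akr1c15, an aldo-keto reductase, fell by 1.74 on day 3 against day 1 (adjusted p = 0.00544 from limma), and Akr1c3, of the same family of hydroxysteroid dehydrogenases, fell by 1.65 on day 3 against day 2 (adjusted p = 0.0192). They were 1 of 35 genes called in each of these contrasts, against 0.955% and 0.227% of all probe sets. The median change of the 35 genes was -0.07 on day 3 against day 1 and -0.11 on day 3 against day 2. Among the 7 receptors, Pgr was 2.10 lower on day 3 than on day 1 (adjusted p = 0.00745 from limma), and the estrogen receptor Esr1 did not pass (0.02, adjusted p = 0.989).

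The study's own test, here called Method 1, scores a probe set by rho, the share of the variance of its log values that a spline over the 4 days captures, against a permuted time course. It called 4 of 11 members, against 8.04% of all probe sets. Por had a rho of 0.668 and 0.529, Cyp2e1 of 0.631 and the main probe set of Star of 0.557, where the lowest rho called was 0.455 and the median over all probe sets was 0.247. The second probe set of Star just missed, with a rho of 0.452. The other members ranged from 0.206 (Hsd11b1) to 0.357 (Fdx1).

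Por and Hsd17b12 had the highest correlations with Star among the members. These correlations and their permutation tests took no account of day or clock hour. For Por they therefore hold the daily rise that it shared with Star, also within days. Over the 31 arrays the log2 intensity of Por had a Pearson r of 0.749 with that of Star (permutation p = 4.00e-05) and a Spearman rho of 0.679 (permutation p = 1.00e-04), with an r of 0.684 without the rats of 7.5 h and 57 h, the farthest from the median of Star. Within days its r ran from 0.775 to 0.895. Hsd17b12 had an r of 0.573 (permutation p = 6.40e-04) and a rho of 0.588 (permutation p = 4.40e-04), with 0.524 without the same rats. Within days it was 0.341, 0.622, 0.702 and -0.185 on days 1 to 4, so that its sign was reversed on day 4, a day of 7 rats. Whether the relation differed between days was not tested. In all 8 relations of this kind were computed, with two-sided permutation tests.

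For the other 6 members the relation was smaller in size. Hsd17b11 had an r of 0.346 (permutation p = 0.0578, rho 0.370 with permutation p = 0.0404), Sts of 0.333 (0.0643, rho 0.223 with 0.226), Fdx1 of 0.307 (0.0895, rho 0.375 with 0.0386) and Hsd17b4 of 0.237 (0.196, rho 0.133 with 0.471). Cyp2e1 had an r of -0.273 (permutation p = 0.139, rho -0.236 with 0.201) and Hsd11b1 of -0.368 (permutation p = 0.0431, rho -0.309 with 0.0898). Without the rats of 7.5 h and 57 h they were 0.209, 0.224, 0.412, 0.246, -0.295 and -0.250 in the same order. Within days 1 of these 6, Hsd17b11, kept its sign on all 4 days.

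Taking out the shared effects of day and clock hour changed the order. In a fit with day, hour and Star's log2 intensity as terms, 4 of 9 probe sets of the other members were called with Star, against 6.63% of all probe sets. Hsd17b12 changed by 0.33 on the log2 scale per log2 unit of Star (standard error 0.055, adjusted p = 0.00126 from limma), Por by 0.34 at its second (adjusted p = 0.0122) and 0.23 at its main probe set (adjusted p = 0.0287), and Hsd17b4 by 0.12 (adjusted p = 0.0399). Sts at 0.18 (adjusted p = 0.152) and Cyp2e1 at -0.48 (standard error 0.24, adjusted p = 0.227) did not pass. The correlation of the residuals with those of Star was 0.770 for Hsd17b12, 0.599 for Hsd17b4, 0.580 for Por and -0.350 for Cyp2e1. Raw intensities of day 3, the day with the highest r of Hsd17b12 and Star (0.702), show the relation in single rats. For 58, 61.3 and 65.6 h, Hsd17b12 read 2577, 2679 and 2074 beside 133, 216 and 434 for Star. For 57, 59.8 and 64.2 h it read 1299, 1243 and 1007 beside 24.3, 79.5 and 59.8 for Star. The remaining rats of that day, of 62.5 and 67.1 h, read 1760 and 1905 beside 184 and 173 for Star.

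The level of adipocyte markers moved with several of these members. The correlations with marker lists and their permutation tests also took no account of day or clock hour. They therefore hold any daily rise that a member shared with the markers. Values with day and hour taken out were not computed for these lists. The mean log2 level of the 12 adipocyte markers had an r of 0.637 with Star (permutation p = 1.20e-04, rho 0.569 with permutation p = 7.80e-04), 0.662 with Por (permutation p = 6.00e-05, rho 0.674 with 1.20e-04), 0.641 with Sts (1.00e-04, rho 0.594 with 5.80e-04), 0.623 with Hsd17b11 (1.80e-04, rho 0.650 with 1.80e-04) and 0.533 with Hsd17b12 (0.00164, rho 0.508 with 0.00374), and of -0.0040 with Cyp2e1 (0.989, rho 0.044 with 0.806), among 36 relations of 4 marker lists with 9 genes. Without the 2 rats farthest from the median of the list, r was 0.490 for Star, 0.554 for Por, 0.582 for Sts, 0.651 for Hsd17b11, 0.462 for Hsd17b12 and -0.036 for Cyp2e1. Within days it ran from 0.406 to 0.790 for Star, from 0.498 to 0.906 for Por, from 0.189 to 0.861 for Sts, from 0.596 to 0.706 for Hsd17b11, from -0.301 to 0.772 for Hsd17b12 and from -0.422 to 0.742 for Cyp2e1. Hsd17b4 had an r of 0.432 with the adipocyte list (permutation p = 0.0151, rho 0.502 with 0.00432). Its r was 0.526 without those rats and 0.372 to 0.625 within days. Hsd11b1 stood at -0.349 (permutation p = 0.0537) and Fdx1 at 0.0098 (0.956). The luminal epithelial list (14 markers) had an r of -0.592 with Hsd17b12 (permutation p = 4.20e-04, rho -0.571 with 9.40e-04), -0.486 without its 2 farthest rats and -0.902 to -0.323 within days.

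The summed intensity of the adipocyte markers ran from 55142 to 96247 in later rats and from 58645 to 81917 in earlier rats. Of the 12, 3 were called higher along the day (Cidec 0.74, Plin4 1.23 and Pparg 0.92), against 1.08% of all probe sets. The other 9 were not, Adipoq at -0.06 and Fabp4 at 0.01 among them. With the adipocyte, skeletal muscle, luminal epithelial and lymphocyte lists as covariates the slope of Star was 1.64 over 10 h and stayed past the threshold (adjusted p = 0.00571 from limma), as did both probe sets of Por, whereas the second probe set of Star did not (0.91, adjusted p = 0.0687). In the same fit 0 of 9 member probe sets were called with Star, and 1 of all 22941 probe sets tested, against 1521 without the lists. Hsd17b12 then changed by 0.24 per log2 unit of Star (standard error 0.062, adjusted p = 0.333 from limma), Hsd17b4 by 0.11 (adjusted p = 0.385) and the main probe set of Por by 0.089 (adjusted p = 0.642).

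**Figure D4:**
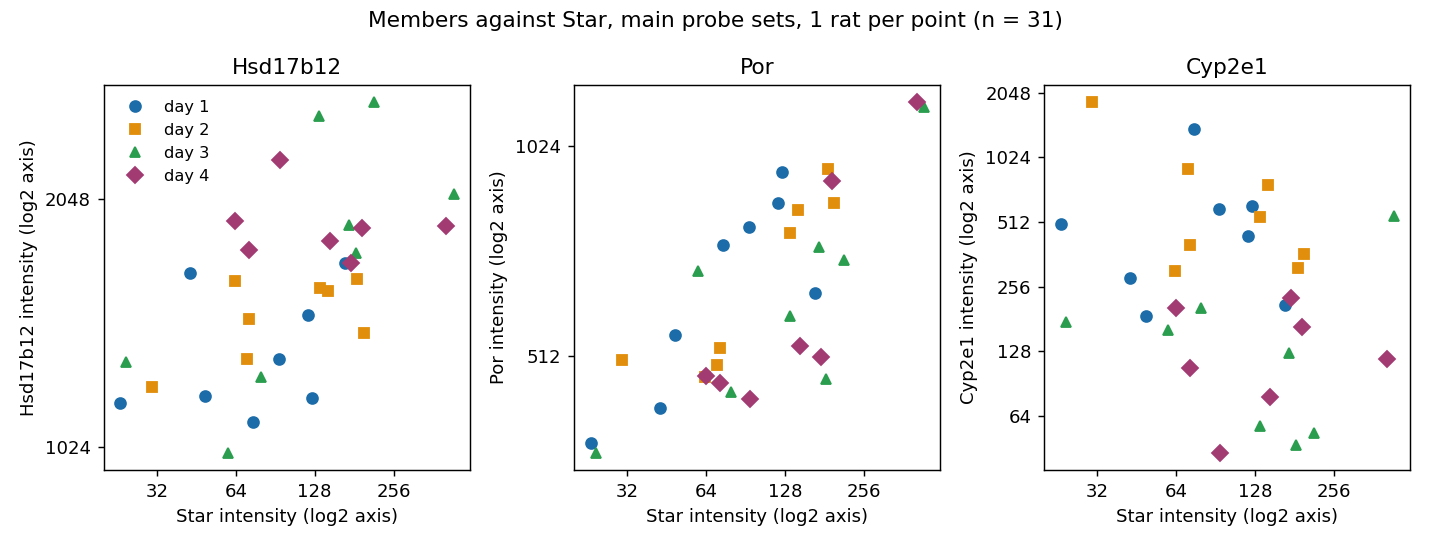
Intensity of Hsd17b12, Por and Cyp2e1 against that of Star (log2 axes, main probe sets), 1 rat per point (n = 31), marked by cycle day. Pearson r is 0.573 for Hsd17b12, 0.749 for Por and -0.273 for Cyp2e1.

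The calls with Star also depended on the scaling and on single rats. Hsd17b4 did not pass after quantile normalization (adjusted p = 0.121 from limma) or with arrays centred on the median (adjusted p = 0.0676), and with array weights Hsd17b12 alone passed, with Por at an adjusted p of 0.132 and 0.100. Hsd17b4 lost its call without the rat of 13, 13.2, 17.6, 37.1, 58, 64.2, 65.6, 67.1, 82.5 or 86.3 h (adjusted p from 0.0319 to 0.0850) and the main probe set of Por without that of 17.6, 58, 61.3, 65.6 or 86.3 h (adjusted p from 0.00868 to 0.0712). Hsd17b12 kept it in all 31 such fits (adjusted p from 7.40e-04 to 0.0107), and so did the second probe set of Por (0.00676 to 0.0458). The rats of 65.6 h and 86.3 h held the 2 highest intensities of Star (434 and 408), Por (1163 and 1183) and Sts (70.9 and 75.3). With both left out, a choice made after the data were seen, 2 of 9 probe sets were called with Star. Hsd17b12 changed by 0.38 per log2 unit of Star (standard error 0.059, adjusted p = 0.00143 from limma) and Cyp2e1 by -0.83 (standard error 0.22, adjusted p = 0.0269), while the main probe set of Por stood at 0.14 (adjusted p = 0.173). Cyp2e1 also passed when the rat of 65.6 h alone was left out (-0.74, adjusted p = 0.0363), a rat in which both Star and Cyp2e1 were the highest of their day.

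Over 11796 genes the r with Star had a median of 0.095, with 5% of genes below -0.371 and 5% above 0.518. The 8 genes most like Star by r over the 31 arrays were Agpat2, an acyltransferase of glycerolipid synthesis (0.830), Tmem120b (0.822), Tmem120a (0.809), the histamine receptor Hrh3 (0.804), the carbonyl reductase Cbr3 (0.798), the uridine-cytidine kinase Uck1 (0.791), the small GTPase Rasd1 (0.784) and the mitochondrial reductase Mtarc2 (0.779). Por ranked 21st and Hsd17b12 317th among them. Of these 8, Tmem120a (0.82 over 10 h) and Hrh3 (1.37) were called along the day, and Agpat2 (1.02, adjusted p = 0.0556 from limma) was not. The 4 genes least like Star were Zfand5 (-0.722), the clock activator Clock (-0.715), Arrdc4 (-0.687) and the kinase Dapk1 (-0.673). All 4 were called lower along the day. Star itself rose with the hour, so this order favours genes with a daily change at either end. These daily calls are therefore no separate result. With day and hour taken out, the r of these 4 genes was -0.564, -0.428, -0.541 and -0.419.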

How the data were processed

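Total RNA of mammary gland was hybridised to 1 Affymetrix Rat 230 2.0 array per rat, 32 arrays in all. Each deposited table holds intensities on a linear scale, computed by the authors with GC-RMA, a method that corrects each probe for background predicted from its bases and then brings the arrays to 1 scale. The submitters' processing notes name it as GCRMA, and its version is not given in the sources used here. Array number sets the precision, and slide and scan batches were unknown and could not be tested.

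Without the 40 h array and 57 control probe sets, log2 intensities of all 22943 probe sets with a median of 10 or more were fitted with limma 3.58.1 in R 4.3.3. Cycle day was a factor, and clock hour, centred shortly past noon, a slope. P-values were adjusted by Benjamini-Hochberg over all probe sets tested, with a threshold of 0.05. Method 1 took its knots and permutation vector from the study, with a spline of order 2 and a rate of 0.25. Correlations had 100000 permutations (SciPy 1.17.1). Where 1 value stands for a gene, its probe set with the highest mean log2 intensity was used. Tested on simulated data for 22943 probe sets, the limma fit found 91% of log2 slopes of 1 per 10 h and 59% of those of 0.5 (6.72% of calls were false). For day 3 against day 1 it found 96% of log2 differences of 1 and 60% of those of 0.5 (5.54% false). Changes of 0.5 were thus often missed in the simulation. Its noise was drawn independently for each probe set, whereas in the real arrays probe sets share differences between rats. The shares also average over probe sets of unlike spread, so they may not carry over to the members.

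The text names every member probe set, the other steroid genes past a threshold and the 8 genes most and 4 least like Star. Members and lists were chosen with earlier results of these data known. Alternatives covered the filter, arrays, normalization, offset, weights, prior variance, tissue covariates, clock hour and spline.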

Additional observations from a re-analysis of the deposited data

Results flagged for a closer look

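Of 44 groups formed by 11 member probe sets and 4 days, 3 held a rat that stood far from the others of its day, all of them the highest of day 4. Chance flags about 1 group in 20, or 2.2 of 44. Hsd17b11 stood at 816 in the rat of 86.3 h, against 648 in the next rat, a gap that was 0.61 of the range of the day. The second probe set of Por stood at 290 in the same rat, against 156 in the next, a gap of 0.639 of the range. Hsd17b12 stood at 2282 in the rat of 80.9 h, against 1921 in the next, a gap of 0.597 of the range.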

How the results depend on the processing

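The daily change of Star kept its direction and passed in all 16 alternatives (1.30 to 2.16, adjusted p up to 0.0466 from limma). It also passed without any single rat (1.83 to 2.24). The low end, 1.30, was the second probe set of Star, counted as 1 of the 16. That probe set kept its own call in 10 of 15 alternatives (adjusted p from 0.00996 to 0.440 from limma). It lost the call with tissue covariates, without day 2, 3 or 4, and without the rats of 65.6 and 86.3 h. Members called along the day numbered 3 to 4 without single rats, and 2 with all rats of day 2 left out. On day 3 against day 1 the count was 0 with no filter, with arrays centred on the median, with the offset, array weights, intensity trend or tissue covariates, and with no clock hour, where Cyp2e1 had adjusted p from 0.0511 to 0.0710, and 0 to 1 without single rats. On day 3 against day 2 it was 1 in all 11 alternatives and 0 to 1 without single rats. Counts with Star were 3 with quantile normalization or median centring, 1 with array weights, 0 with tissue covariates, 2 without the rats of 65.6 and 86.3 h, and 2 to 4 without single rats, the lowest when the rat of 17.6, 58 or 86.3 h was dropped. Calls of Method 1 numbered 2 at a false discovery rate of 0.05, 2 with a spline of order 3 and 3 to 5 without single rats. With tissue covariates the change with Star turned to -0.014 for Sts, 0.019 for Hsd11b1 and -0.026 for Hsd17b11, none of which had passed. The cause of these differences was not tested. No paired analysis was possible because each rat had a time point of its own and no replicate number.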
